A study of Mus musculus with 60 samples.

Results

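The DNA replication genes are 43 genes that license, start, copy and seal replicating DNA, repair it behind the fork or pack it into chromatin. They were listed by symbol, with earlier results of these data known, and all 43 were found among the 23440 genes of the culture table and in the other count tables. The flap endonuclease gene Fen1 held 6, 2 and 17 counts in all in the culture, passage and single organoid tables and no more than 3 in any library, so it was not tested. In the mouse annotation Gm10143 and Tmem258 overlap it on the opposite strand. The other 42 members were tested in each experiment. They lie on 16 chromosomes.

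The organoids were grown from bile ducts of C57BL/6N mouse livers, which the labels age at 3-4 months, and carry no genetic change. A first experiment compared organoids in Matrigel domes with organoids in a shaken suspension, with 3 cultures of each. By the study's account the cultures came from 3 pools of animals, and the same organoids were grown in both ways. A second compared bulk suspension cultures of Sets 1, 3 and 4 at passage 11 with the same sets at passage 4, with 2 technical replicates summed per culture. The last sequenced 42 single organoids from suspension, of which the study kept 35. By its account, 8 kept organoids of Set 1 were at passage 11, 12 of Set 4 were at passage 4, and 10 and 5 from Sets 2 and 3 were at passage 3. Each set came from 1 mouse, so a difference between sets cannot be told apart from a difference between mice, passages or cultures. Values below are CPM, which are counts scaled to a common library total, after TMM normalisation within each experiment. Levels are therefore not compared between experiments.

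A replicating cell first loads the Mcm2-7 helicase onto origins with Cdc6 and Cdt1, and geminin (Gmnn) blocks reloading. Cdc45, the GINS complex and Mcm10 switch the helicase on, and primase with polymerase alpha starts each strand. Polymerases delta and epsilon then extend it on the Pcna clamp, which the RFC complexes load. Clspn, Tipin and their partners guard the fork, and the CAF-1 complex, Nasp and Slbp supply the new DNA with histones. In textbook accounts most of these genes are switched on by E2F factors as a cell enters S phase. Adult bile duct cells seldom divide, whereas their organoids proliferate in culture.

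The upstream sequences are shown because many of the members share short stretches of letters near their start sites. RefSeq promoter windows of GRCm38.p6, from 250 bases before to 50 bases after the start, were given for 32 of the 43 members. The letters TTTCCCGC, TTTCGCGC, TTTGCCGC or TTTGGCGC, which E2F factors are known to bind, were searched on both strands and may overlap each other. They stood in the window of 16 of 32 members (50%), against 2.6% of the windows of all 27025 genes. Upstream of the start alone they stood in 10 of 32 members (31.2%), against 2.16% of all genes. The members' windows were also richer in G and C, with a median of 62.2% against 53.3%. Among genes with a G and C content at or above the members' median, 56.2% of members and 5.01% of all genes held the letters. The letters CCAAT, on either strand upstream of the start, were present in 68.8% of members and 37.5% of all genes. The 250 bases before the start follow for 5 of the members with upstream matches, which are 3 helicase subunits, the loader Cdc6 and the chromatin gene Hells, 5′ to 3′ on the strand of the gene, with the matched letters in capitals.
Mcm5, chr8:75109259-75109508, + strand: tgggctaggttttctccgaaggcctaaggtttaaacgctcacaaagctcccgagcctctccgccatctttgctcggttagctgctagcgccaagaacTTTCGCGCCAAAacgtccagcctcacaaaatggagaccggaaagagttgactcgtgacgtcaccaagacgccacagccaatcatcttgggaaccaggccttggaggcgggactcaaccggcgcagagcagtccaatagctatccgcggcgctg
Mcm6, chr1:128359706-128359955, - strand: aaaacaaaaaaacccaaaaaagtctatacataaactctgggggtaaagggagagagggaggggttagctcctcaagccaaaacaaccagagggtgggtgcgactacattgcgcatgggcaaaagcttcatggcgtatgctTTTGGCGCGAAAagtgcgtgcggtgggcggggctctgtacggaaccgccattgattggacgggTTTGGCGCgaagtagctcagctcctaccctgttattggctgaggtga
Mcm7, chr5:138171884-138172133, - strand: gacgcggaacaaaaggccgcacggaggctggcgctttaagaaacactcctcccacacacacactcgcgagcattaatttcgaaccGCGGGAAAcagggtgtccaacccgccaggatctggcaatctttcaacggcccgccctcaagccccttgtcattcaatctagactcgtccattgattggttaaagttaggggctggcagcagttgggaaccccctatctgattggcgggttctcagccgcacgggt
Cdc6, chr11:98907901-98908150, + strand: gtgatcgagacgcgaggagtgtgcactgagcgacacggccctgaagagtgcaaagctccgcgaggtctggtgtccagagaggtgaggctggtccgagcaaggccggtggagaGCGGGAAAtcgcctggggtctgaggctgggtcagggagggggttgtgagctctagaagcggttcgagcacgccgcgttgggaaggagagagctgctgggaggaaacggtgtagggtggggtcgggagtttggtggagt
Hells, chr19:38930740-38930989, + strand: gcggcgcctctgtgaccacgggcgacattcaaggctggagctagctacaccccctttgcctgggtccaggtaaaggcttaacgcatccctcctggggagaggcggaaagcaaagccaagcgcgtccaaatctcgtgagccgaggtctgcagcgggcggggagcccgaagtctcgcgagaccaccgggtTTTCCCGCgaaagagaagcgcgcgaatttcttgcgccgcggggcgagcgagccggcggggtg

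In Mcm5 and in the distal block of Mcm6, a pair of matches on opposite strands overlapped, which gave the longer runs of capitals. The first matched letter lay 153, 110, 165, 138 and 62 bases before the start in Mcm5, Mcm6, Mcm7, Cdc6 and Hells. These starts are those of the RefSeq windows. In the mouse annotation Mcm7 and Cdc6 begin further upstream, at 138172422 and 98907801, so their printed stretches lie within the gene. Hells begins at 38930915, within its printed stretch. A match is only a string of letters and does not show that a factor binds there.

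Libraries held 1776490 to 14761853 counts in the culture experiment, 1486347 to 5532630 in the passage experiment and 1059002 to 11175868 among the kept organoids. All 12 cholangiocyte and ductal markers passed the filter in each experiment, whereas no endothelial or mesenchymal marker exceeded 3.12 CPM. Of 16 hepatocyte markers, 8 passed, and 2 or 3 of 10 macrophage markers did. In bulk libraries, fewer replicating cells cannot be told apart from less RNA of these genes per cell.

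The first comparison asked whether dome and suspension cultures differ in their expression. Nearly the whole replication programme was lower in domes. In all, 40 of 42 members were lower in domes and 0 were higher, where 14.7% of the 12699 genes tested were lower. The median log2 fold-change was -1.45 for the members and -0.04 for all genes tested, and it was negative for all 42 members. For 41 members every dome library lay below every suspension library, a pattern that 25.9% of all genes tested showed.

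**Figure D1:**
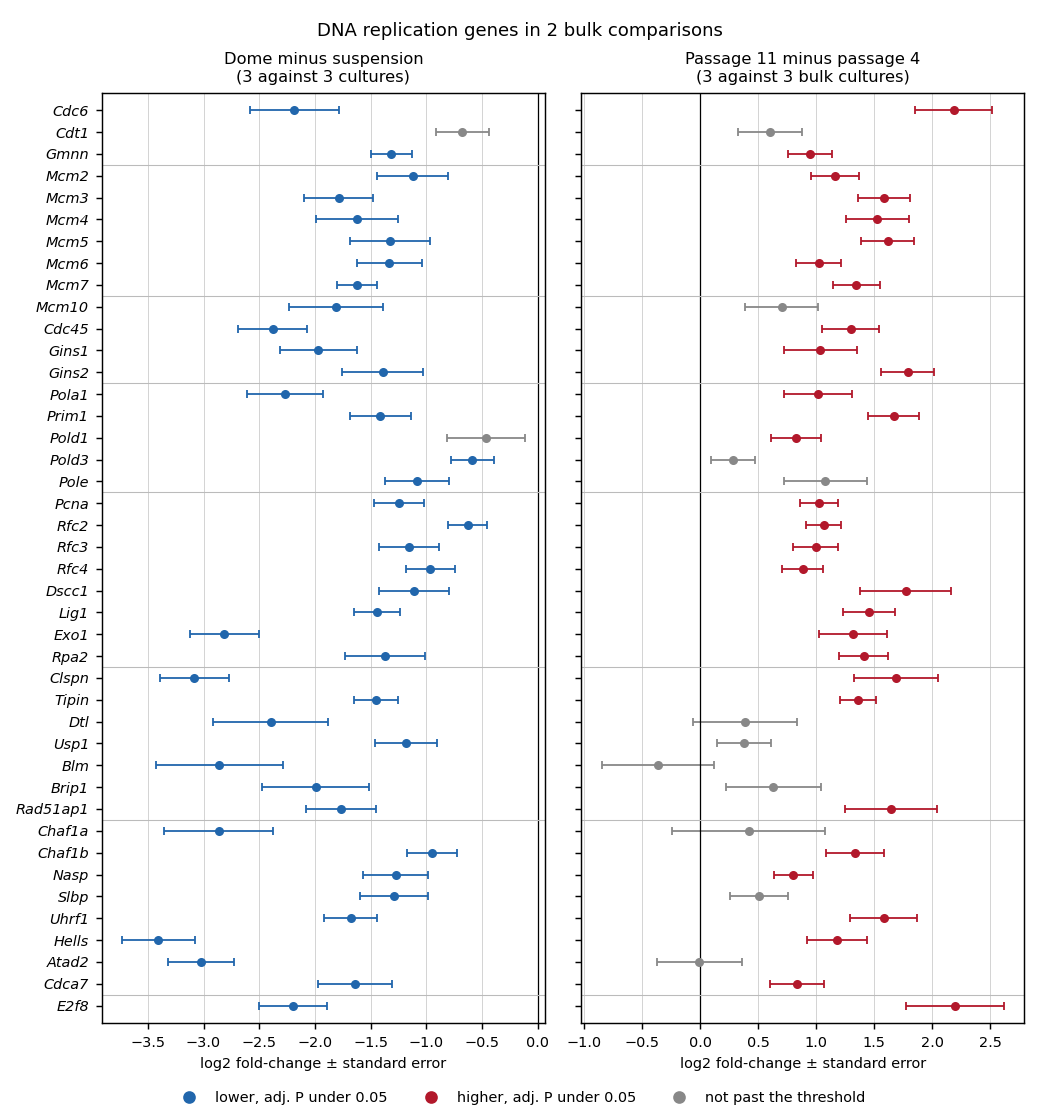
Log2 fold-change with its standard error for each of the 42 tested members (rows, grouped by role), for dome minus suspension (left) and passage 11 minus passage 4 (right), 3 against 3 cultures each. In domes 40 members were lower, at passage 11 31 were higher, and grey points did not pass an adj. P-value of 0.05.

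All 6 subunits of the Mcm2-7 helicase were lower in domes, with log2 fold-changes of -1.12 to -1.79. Mcm3 changed most, and Mcm7 had the lowest P-value of the 6, with 21.7, 23.4 and 23.6 CPM in domes 1 to 3 and 71.9, 66.4 and 71.9 CPM in suspensions 1 to 3. The groups were far apart and replicates were close (log2 fold-change -1.62 ± 0.18 SE, adj. P-value 0.000821). Mcm5 was more variable, with 20.3, 8.03 and 34.1 CPM in domes against 57.2, 47.7 and 54.4 CPM in suspension. It did not overlap either, but dome 2 was well below the other domes (log2 fold-change -1.33 ± 0.36, adj. P-value 0.0203). All 4 genes that activate the helicase were lower, led by Cdc45, which travels with it at the fork. Cdc45 stood at 4.18, 1.46 and 2.75 CPM in domes and at 19.1, 16.5 and 17.3 CPM in suspension, with no overlap (log2 fold-change -2.38 ± 0.31, adj. P-value 0.00135).

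Of the 3 licensing genes, Gmnn and the helicase loader gene Cdc6 were lower. Gmnn had 23.4, 22.6 and 23.1 CPM in domes and 62, 54.1 and 56.1 CPM in suspension, which set the groups clearly apart (log2 fold-change -1.31 ± 0.18, adj. P-value 0.00165). Cdt1, the other loading factor, had 18.5, 16.1 and 26.9 CPM in domes and 27.3, 33.8 and 36.4 CPM in suspension. Dome 3 reached almost to suspension 1, and the difference missed the threshold (log2 fold-change -0.68 ± 0.24, adj. P-value 0.0571).

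Among the primase and polymerase genes 4 of 5 were lower, and these held the smallest differences of the programme. Pola1, the catalytic subunit of polymerase alpha, fell from 10.9, 8.74 and 8.6 CPM in suspension to 2.13, 0.73 and 2.2 CPM in domes. The 2 groups were separated (log2 fold-change -2.27 ± 0.34, adj. P-value 0.00222). Pold1, the catalytic subunit of polymerase delta, had 11.6, 5.11 and 18.7 CPM in domes and 15.1, 19.8 and 15.1 CPM in suspension. It was the only member whose groups overlapped (log2 fold-change -0.47 ± 0.35, adj. P-value 0.331). Pold3, an accessory subunit of the same polymerase, had 24.6, 23.4 and 27.5 CPM in domes and 33.8, 40.4 and 39.3 CPM in suspension, and the difference was small but did not overlap (log2 fold-change -0.59 ± 0.19, adj. P-value 0.0417).

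All 8 tested genes of the clamp, its loaders and Okazaki fragment maturation were lower. The exonuclease gene Exo1 was at 1.45, 1.46 and 1.65 CPM in domes and at 9.88, 11.6 and 10.2 CPM in suspension, so that each suspension library was far above each dome (log2 fold-change -2.81 ± 0.31, adj. P-value 0.000821). Rfc2, a subunit of the clamp loader, had one of the smallest changes, with 47.3, 53.3 and 45.6 CPM in domes against 78.4, 73 and 73.8 CPM in suspension. Its replicates were tight and did not overlap (log2 fold-change -0.63 ± 0.17, adj. P-value 0.0233). The clamp gene Pcna itself had 81.9, 46 and 66.5 CPM in domes and 161, 148 and 159 CPM in suspension, again without overlap (log2 fold-change -1.25 ± 0.23, adj. P-value 0.00437).

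The largest falls were in genes of chromatin and of fork protection, where all 8 and all 7 members were lower. Hells, a chromatin remodeller needed for DNA methylation, had 8.52, 8.03 and 3.84 CPM in domes and 101, 73.7 and 55.7 CPM in suspension. Suspension libraries varied among themselves, yet the lowest of them was above every dome by a wide margin (log2 fold-change -3.40 ± 0.33, adj. P-value 0.000672, 10.6-fold lower). Clspn, which relays the checkpoint signal from a stalled fork, had 2.74, 1.46 and 2.2 CPM in domes against 22.9, 15.8 and 22.9 CPM in suspension. The groups did not overlap (log2 fold-change -3.08 ± 0.31, adj. P-value 0.000694). Atad2, a bromodomain ATPase of replicating chromatin, had 2.59, 2.92 and 4.39 CPM in domes against 29, 23.1 and 22.3 CPM in suspension. It too was separated (log2 fold-change -3.02 ± 0.29, adj. P-value 0.000694). E2f8, the only transcription factor among the members and a repressor, was at 2.66, 3.65 and 4.94 CPM in domes and 16.4, 13.2 and 16.4 CPM in suspension. All 3 suspensions were higher (log2 fold-change -2.20 ± 0.31, adj. P-value 0.00169). Dome 2 held the lowest dome value for 34 of 42 members, and it also had the lowest TMM factor of its experiment, at 0.726. Without dome 2 the count of lower members was again 40.

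By role, the activators changed by a log2 fold-change of -1.39 to -2.38, the clamp group by -0.63 to -2.81, the fork group by -1.18 to -3.08 and the chromatin group by -0.95 to -3.40. Some of the larger falls were in genes of few counts in domes. Blm had 0.685, 0 and 0 CPM in domes and 4.62, 3.31 and 3.51 CPM in suspension, and Chaf1a, the large subunit of CAF-1, had 2.28, 0 and 1.1 CPM against 18.1, 11.3 and 9.22 CPM. Dtl had 1.9, 0 and 5.49 CPM in domes against 11.8, 10.9 and 14 CPM. In each of these dome 2 was at 0 while every suspension was above every dome. DNA ligase I, Lig1, which seals Okazaki fragments, was counted more often, with 19.7, 21.2 and 24.7 CPM in domes and 67.9, 55.3 and 53.7 CPM in suspension (log2 fold-change -1.44 ± 0.20, adj. P-value 0.00171).

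Other genes of replication, a list of 48 that are not members, followed with 33 lower and 1 higher in domes. The 3 of lowest P-value were Top2a, which untangles DNA (log2 fold-change -2.06 ± 0.25), the initiation factor gene Topbp1 (-2.12 ± 0.27) and Pole3, a small subunit of polymerase epsilon (-1.5 ± 0.19). The exception was Pold4, the smallest subunit of polymerase delta, which stood at 133, 260 and 85.7 CPM in domes and 43.1, 62.8 and 48.9 CPM in suspension. It was higher in every dome (log2 fold-change 1.62 ± 0.36, adj. P-value 0.00937). Of 12 E2F and Rb family genes, 3 were lower and 0 higher: Tfdp1 (-1.06 ± 0.25), E2f7 (-2.28 ± 0.63) and E2f3 (-1.06 ± 0.33). The proliferation marker Mki67 moved with the members, at 5.17, 9.49 and 6.59 CPM in domes and 35.9, 22.4 and 34.1 CPM in suspension (log2 fold-change -2.26 ± 0.30, adj. P-value 0.00149). The share of mitochondrial counts, 1.64 to 2.02% in domes and 3.72 to 4.02% in suspension, was also lower in domes. Macrophage markers summed to 207.1 to 280.1 CPM in domes and 523.6 to 647.8 CPM in suspension, with 4 of the 10 at 0 throughout, but the list was mixed. Most of the sum was Cd14, at 274, 118 and 178 CPM in domes and 645, 515 and 587 CPM in suspension, whereas Cd68 was higher in domes, at 6.01, 89.8 and 27.5 CPM against 2.73, 8.03 and 3.44 CPM (log2 fold-change 3.06 ± 0.84, adj. P-value 0.0223). Of 8 tested hepatocyte markers, 3 were higher in domes (Ass1, Apoa1 and Apoa2) and 1 was lower (Fah). Apoa1 had 159, 4.38 and 12.1 CPM in domes against 2.73, 2.36 and 1.51 CPM in suspension, so dome 1 was far above the rest. The part of any of these in the result was not tested.

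**Figure D2:**
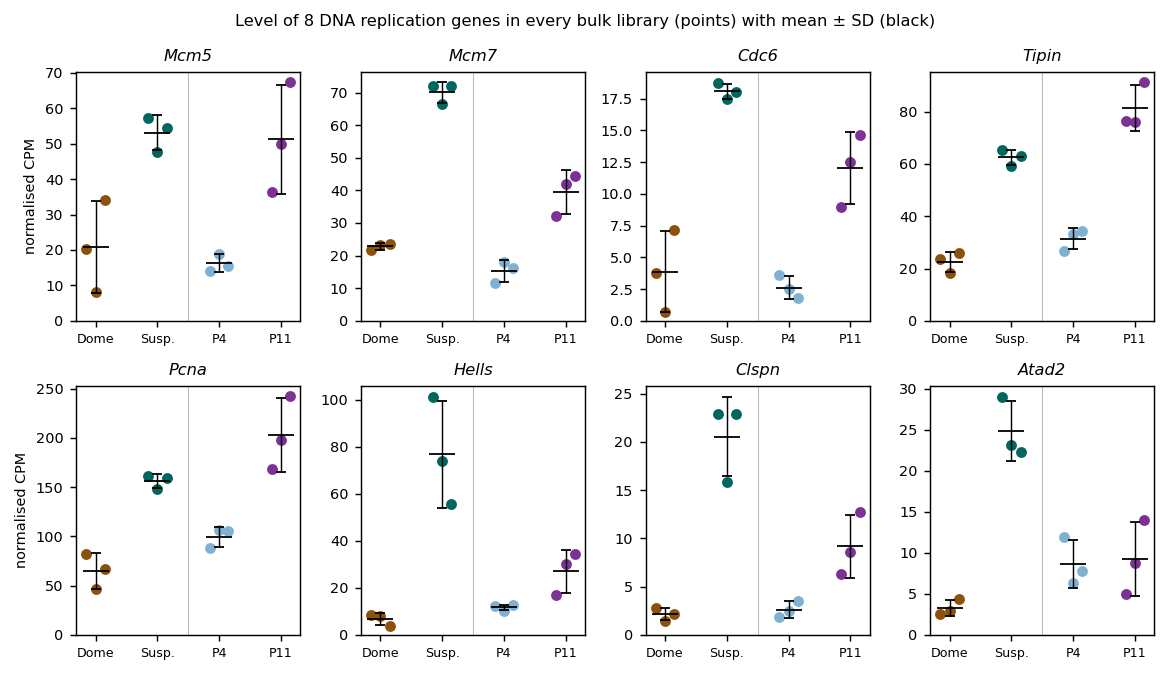
Normalised CPM (vertical axis, from 0) of 8 members in every library of the dome, suspension, passage 4 (P4) and passage 11 (P11) cultures, with the mean and SD in black; passage points run Set 1, 3, 4 from left to right. Hells, Clspn and Atad2 were separated most widely by culture, and Atad2 alone of the 8 overlapped between passages.

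The second comparison asked what changes with long culture. The passage of each library was taken from its label alone, and the labels were not checked against measured values. In the libraries labelled passage 11, 31 of 42 members were higher than in those labelled passage 4 and 0 were lower, where 10.1% of the 13738 genes tested were higher. The median log2 fold-change of the members was 1.07, and 40 of the 42 were positive. For 34 members every passage 11 culture was above every passage 4 culture, which 19.2% of all genes tested showed. In both experiments together, 30 of 42 members were lower in domes and higher at passage 11, against 2.73% of the genes tested in both. These were different cultures with no shared library. Across the 42 members the sizes of the 2 changes showed little relation (Pearson's r = 0.049, Spearman's rho = -0.094, given as a description across genes).

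All 6 helicase subunits and all 8 tested genes of the clamp group rose. Mcm5 had 36.5, 50 and 67.3 CPM at passage 11 in Sets 1, 3 and 4 and 14.2, 19 and 15.6 CPM at passage 4. Every passage 11 value was above every passage 4 value (log2 fold-change 1.62 ± 0.23, adj. P-value 0.00176). Mcm3 had 33.4, 40.1 and 60.3 CPM against 15.5, 15.1 and 12.8 CPM, with passage 4 cultures close together (log2 fold-change 1.58 ± 0.22, adj. P-value 0.0018). Rfc2 rose in each set, to 94.8, 103 and 119 CPM from 43.2, 51.7 and 55.3 CPM. Its groups were well apart (log2 fold-change 1.06 ± 0.15, adj. P-value 0.00182).

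Of the helicase activators 3 of 4 rose, and of the licensing genes 2 of 3. Gins2, a GINS subunit, had 32.3, 28.2 and 46.4 CPM at passage 11 and 8.02, 9.97 and 11.8 CPM at passage 4, without overlap (log2 fold-change 1.79 ± 0.23, adj. P-value 0.00123). Cdc6 had 8.96, 12.5 and 14.6 CPM against 3.62, 2.49 and 1.76 CPM. It showed one of the widest changes (log2 fold-change 2.19 ± 0.33, adj. P-value 0.00263, 4.55-fold higher). Mcm10 and Cdt1 missed the threshold, and Set 1 was the exception for Cdt1, with 40.3 CPM at passage 11 and 49.7 CPM at passage 4.

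Of the primase and polymerase genes 3 of 5 rose. The primase gene Prim1 had 31.1, 33.6 and 45.1 CPM at passage 11 and 8.28, 13.2 and 11.9 CPM at passage 4, and the groups were apart (log2 fold-change 1.67 ± 0.22, adj. P-value 0.00134). Pold3 had 30, 35.5 and 48.3 CPM against 29.8, 27.4 and 34.3 CPM. Its groups overlapped (log2 fold-change 0.28 ± 0.19, adj. P-value 0.333).

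Genes of fork protection and chromatin split. Tipin, a fork protection gene, had the lowest P-value of all members, with 76.4, 76.2 and 91.5 CPM at passage 11 and 26.7, 33.2 and 34.3 CPM at passage 4. It rose to a like level in each set (log2 fold-change 1.36 ± 0.15, adj. P-value 0.000807). Uhrf1, which brings maintenance methylation to new DNA, had 19.3, 32.4 and 42.6 CPM against 10.4, 12.3 and 7.91 CPM. All passage 11 cultures were higher (log2 fold-change 1.58 ± 0.29, adj. P-value 0.00566). By contrast only 3 of 7 fork protection genes and 5 of 8 chromatin genes passed the threshold, and the 2 members with a negative log2 fold-change were among them. Atad2 had 4.93, 8.74 and 14 CPM at passage 11 and 11.9, 6.32 and 7.73 CPM at passage 4. Passage 11 was the lower value in Set 1 and the higher in Sets 3 and 4, so the groups overlapped (log2 fold-change -0.01 ± 0.37, adj. P-value 0.991). The helicase gene Blm had 2.69, 1.19 and 1.27 CPM against 2.59, 3.07 and 1.41 CPM, levels of few counts (log2 fold-change -0.37 ± 0.48, adj. P-value 0.636). E2f8 rose from 2.59, 1.53 and 1.93 CPM to 4.93, 10.3 and 14 CPM, with no overlap (log2 fold-change 2.20 ± 0.43, adj. P-value 0.00711).

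The members past the threshold that are not given above changed by a log2 fold-change of 0.80 for Nasp, a histone chaperone gene, to 1.77 for Dscc1, part of an alternative clamp loader. Dscc1 had 10.8, 7.94 and 10.8 CPM at passage 11 and 1.55, 4.79 and 1.93 CPM at passage 4, and Clspn had 6.27, 8.54 and 12.7 CPM against 1.81, 2.49 and 3.51 CPM. In neither gene did the passages overlap. Of the members that did not pass, Pole, the catalytic subunit gene of polymerase epsilon, came closest, with 4.03, 8.34 and 8.26 CPM against 2.59, 3.07 and 3.69 CPM (log2 fold-change 1.08 ± 0.36, adj. P-value 0.0578). Usp1 had 19.7, 31.6 and 40 CPM against 21.7, 21.1 and 25.3 CPM, Dtl 1.79, 3.97 and 5.08 CPM against 3.62, 2.3 and 1.93 CPM, and Chaf1a 0.672, 1.79 and 4.45 CPM against 1.29, 2.11 and 0.703 CPM. In these 3 genes, as in Atad2, the passages overlapped and Set 1 was not higher at passage 11.

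The rise differed in size among the sets. Each set had 1 culture per passage, so a difference between mice cannot be told apart from one between cultures. Within Set 1, 37 of 42 members were higher at passage 11, with a median 1.75-fold change. In Set 3 it was 40 members and 1.92-fold, and in Set 4 it was 41 members and 2.73-fold. The rise was largest in Set 4 for 31 members and smallest in Set 1 for 26. Over all genes tested the median log2 ratio was -0.032, -0.005 and -0.076 in Sets 1, 3 and 4. Both technical replicates at passage 11 were above both at passage 4 for 32, 38 and 40 members in Sets 1, 3 and 4, against 30.9, 30.9 and 24.2% of all genes tested. Among passage 11 cultures, Set 1 held the lowest value for 31 of 42 members and Set 4 the highest for 36. The shares of all genes with these orders of the sets, in rise or in level, were not computed. Set 4 at passage 11 was also the shallowest library of this experiment, at 1486347 counts, where the others held 3911719 or more. The part of depth in these differences was not tested. At passage 4 the sets were closer, with summed member levels of 641 to 689 CPM against 1160 to 1794 CPM at passage 11.

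Of the 47 other replication genes tested, 20 rose and 0 fell. Those of lowest P-value were Pclaf, the Pcna-associated factor gene (log2 fold-change 2.88 ± 0.26), the clamp loader gene Rfc5 (1.60 ± 0.16) and the histone chaperone gene Asf1b (2.18 ± 0.23). Of 12 E2F and Rb family genes 4 rose and 0 fell, led by E2f1 (1.82 ± 0.23), Tfdp1 (0.95 ± 0.16) and E2f4 (0.75 ± 0.13). E2f1 had 18.4, 22.2 and 29.2 CPM at passage 11 and 6.99, 6.32 and 5.97 CPM at passage 4. Mki67 had 11.2, 22 and 10.8 CPM against 6.99, 11.1 and 11.4 CPM, which overlapped (log2 fold-change 0.61 ± 0.31, adj. P-value 0.191). The mitochondrial share was 0.895 to 1.71% at passage 11 and 1.99 to 2.63% at passage 4. The summed level of macrophage markers, nearly all of it Cd14, was 380.5 to 622.5 CPM and 874.6 to 1158 CPM, with 5 of those 10 markers at 0 throughout. Hepatocyte markers summed to 812.9 to 1168 CPM at passage 11 and 340.4 to 755 CPM at passage 4, and 5 of those 16 were at 0. Nearly all of that sum was Ttr, at 732, 659 and 1090 CPM against 267, 542 and 684 CPM, which did not pass (log2 fold-change 0.73 ± 0.31, adj. P-value 0.119). Of the 8 tested, Apoa1 and Fah rose. Apoa1 rose mainly in Set 3, with 5.38, 85.6 and 1.27 CPM against 2.07, 0.767 and 1.23 CPM, and its passages overlapped. By contrast 3 had negative log2 fold-changes, and of these Ass1 and Apob lay below every passage 4 culture without passing. The part of any of these in the result was not tested.

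**Figure D3:**
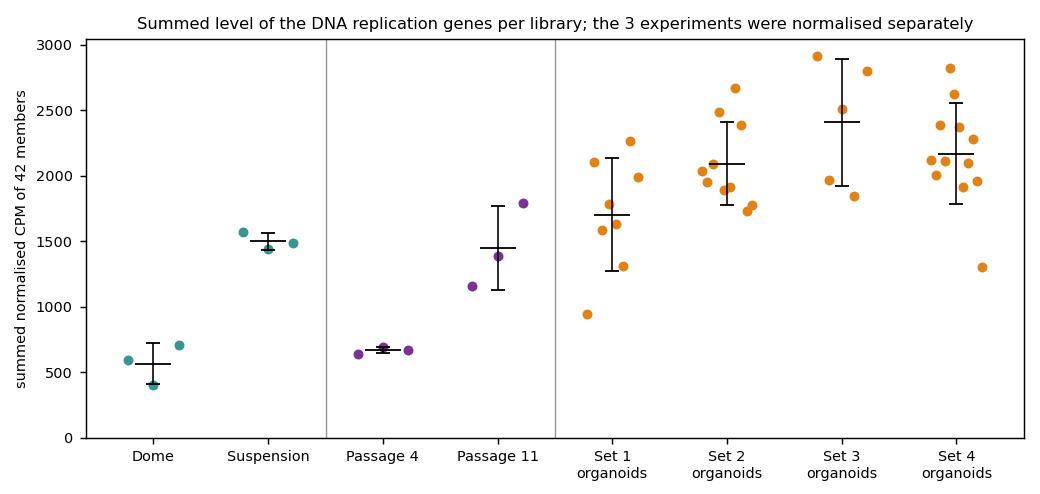
Summed normalised CPM of the 42 members (vertical axis, from 0) in each library, with the mean and SD in black. Domes sit at 400 to 705 CPM and suspensions at 1440 to 1572 CPM, passage 11 lies above passage 4, and the lowest single organoid is organoid 1 of Set 1; levels are comparable only within an experiment.

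The single organoid experiment asked how far organoids of the same and of different mice resemble each other. Set 1, the only set sequenced at passage 11 as single organoids, was the lower set in each of its comparisons. Against Set 2, 18 of 42 members were lower in Set 1, against Set 3 it was 19 and against Set 4 it was 23, with 0 higher in each, where 7.19, 5.15 and 7.6% of the 13927 genes tested were lower. The median log2 fold-changes were -0.55, -0.76 and -0.59. Among the other sets, edgeR gave 0 members in either direction between Sets 2 and 3, where 3.93% of all genes tested passed. At an unadjusted P-value under 0.05 there were 7 members, against 13% of all genes, and limma-voom and DESeq2 also gave 0. Between Sets 2 and 4 edgeR again gave 0, where 12.4% of all genes tested passed. Here 4 members had an unadjusted P-value under 0.05, against 30% of all genes, and both other tools gave 0. Between Sets 3 and 4 only the clamp loader gene Rfc4 passed, higher in Set 3 (log2 fold-change 0.64 ± 0.18, adj. P-value 0.0149), where 7.89% of all genes tested were higher. Without any overlap of organoids, 2 members were lower in Set 1 than in Set 3 and 1 than in Set 4, against 2.1 and 0.309% of all genes tested. Organoids of 1 set share a mouse, so these P-values measure the spread between organoids.

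In 8 members Set 1 was lower than each of the other 3 sets: Chaf1b, Dtl, Gmnn, Mcm10, Mcm4, Mcm7, Pold1 and Tipin. This held for 1.52% of all genes tested. Another 13 members were lower in 2 comparisons, 10 in 1 and 11 in none. Of the 8, only Mcm7 passed in all 3 comparisons under each of the 23 alternative settings. Mcm4 against Set 2 (adj. P-value 0.0495) was lost in 13 of them, Gmnn against Set 4 in 8, and Dtl and Tipin against Set 2 in 5 each. Of the 23 settings, 5 left out an organoid of Set 3, and no setting left out an organoid of Sets 2 or 4. The replicate block, also among the 23, used organoid numbers that pair nothing. Chaf1b, a subunit of the histone loader CAF-1, ranged from 12 to 22.6 CPM in Set 1 with a median of 14.7 CPM. The medians of Sets 2, 3 and 4 were 30, 28.9 and 33.8 CPM, and their lowest organoids had 22.1, 16.2 and 22.4 CPM, so the ranges overlapped in part. Its log2 fold-changes were -0.91 ± 0.20, -0.97 ± 0.23 and -1.12 ± 0.19, with adj. P-values of 0.0015, 0.00356 and 6.99e-05.

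Mcm7 ranged from 17.3 to 35.4 CPM in Set 1 with a median of 32.1 CPM, and had medians of 47.4, 48.2 and 58.7 CPM in Sets 2, 3 and 4. Every Set 1 organoid was below every organoid of Sets 3 and 4, while the lowest of Set 2, at 32.5 CPM, overlapped. Mcm10 ranged from 3.7 to 10.1 CPM with a median of 7.54 CPM in Set 1, against medians of 11.5, 15.9 and 13.2 CPM. In Set 3 no organoid was below 14.4 CPM (log2 fold-change -1.17 ± 0.22, adj. P-value 0.000309). Gmnn had medians of 44.6, 73.2, 78.6 and 61.8 CPM in Sets 1 to 4, with ranges of 24 to 67, 53.6 to 87.7, 66.7 to 93.8 and 45 to 75.1 CPM. Set 1 overlapped Sets 2 and 4 broadly and Set 3 by a fraction of a CPM.

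Tipin, with medians of 32.7, 54.4, 66.1 and 55.6 CPM, was lower in Set 1 by a log2 fold-change of -0.54 ± 0.16, -0.94 ± 0.19 and -0.75 ± 0.16. Pold1 had medians of 10.2, 16.1, 17.3 and 18.1 CPM, with a highest Set 1 organoid of 14.7 CPM that was above the lowest of each other set. Mcm4 had medians of 25.7, 32.8, 45.5 and 42.4 CPM and Dtl, which marks Cdt1 for destruction, of 9.55, 13.2, 20.5 and 17.1 CPM. Cdc45 passed against Sets 2 and 4 only, with medians of 5.94, 9.58, 9.18 and 11.8 CPM. Mcm5 passed against the same sets, with medians of 34, 42.2, 47.7 and 59.3 CPM. Rfc3 had medians of 30.8, 45.6, 37.5 and 41.2 CPM, and also passed against Sets 2 and 4.

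**Figure D4:**
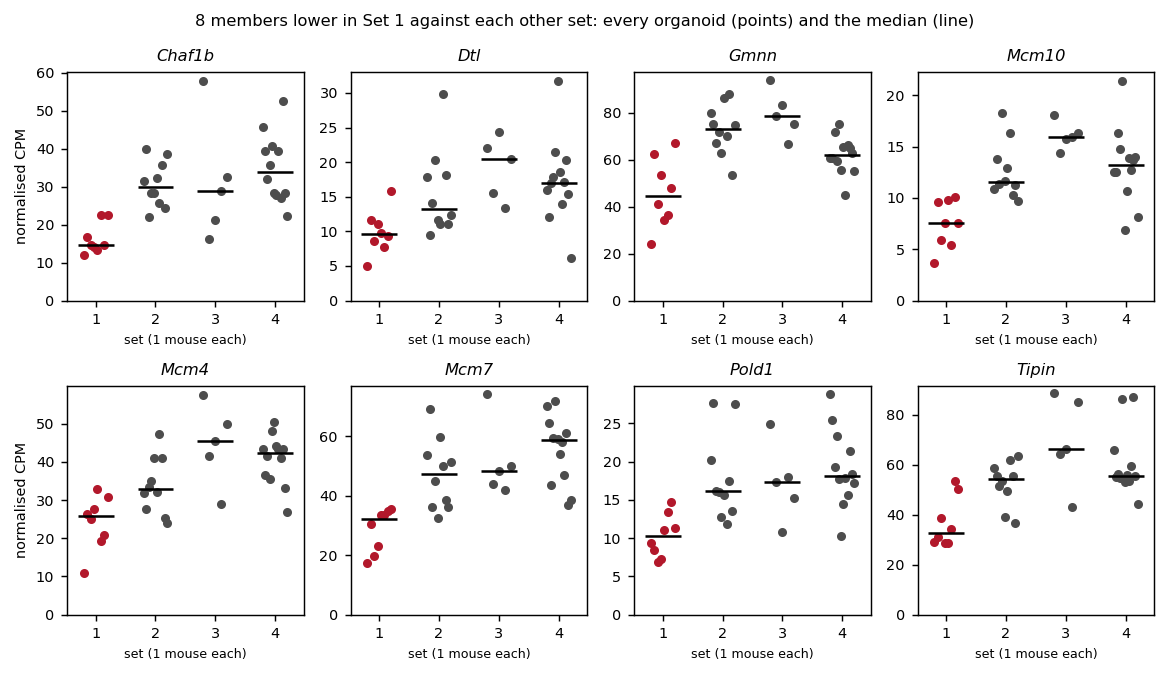
Normalised CPM (vertical axis, from 0) of the 8 members that were lower in Set 1 against each other set; each point is 1 organoid (8, 10, 5 and 12 in Sets 1 to 4) and each line a median. Set 1 (red) has the lowest median in every panel, and in every panel its range overlaps that of at least 1 other set.

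Several members did not take part. Usp1, a deubiquitinase of the clamp, had medians of 312, 196, 273 and 184 CPM in Sets 1 to 4, with a Set 1 range of 137 to 415 CPM. Its log2 fold-change was positive against each set but passed against none (0.39 ± 0.26, 0.12 ± 0.32 and 0.61 ± 0.25). Pold3 had medians of 55.6, 50.2, 57 and 44.3 CPM (log2 fold-changes 0.13 ± 0.14, -0.17 ± 0.16 and 0.26 ± 0.13). Slbp, which processes histone messages, had medians of 24, 20, 29.1 and 18.3 CPM, Rad51ap1, a repair factor gene, of 19.7, 19.8, 20.6 and 21.7 CPM, and Prim1 of 59.9, 58, 66.1 and 54.2 CPM. Hells, so far apart between domes and suspension, had medians of 264, 264, 372 and 247 CPM and did not pass against any set. Clspn, with medians of 52.4, 55.9, 76.4 and 53.4 CPM, did not pass either.

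The number of members past the threshold in Set 1 rested in part on single organoids. Organoid 1 of Set 1, the deepest library at 11175868 counts, held the lowest Set 1 value for 34 of 42 members and the lowest summed level, 944.8 CPM. The other 7 summed to between 1313 and 2263 CPM. Without it 9, 16 and 18 members were lower than in Sets 2, 3 and 4, and the median log2 fold-change against Set 2 was -0.42 in place of -0.55. Without organoid 3 the count against Set 2 was 11, but the median was -0.54. With the 7 organoids that the study had left out returned, the counts were 7, 10 and 17. Set 1 had summed levels of the other replication genes of 1786 to 3359 CPM with a median of 2780.5 CPM, against a median of 3260 CPM in Set 2. Of those 48 genes 7, 4 and 14 were lower in Set 1 and 1 was higher in each comparison, again Pold4 (log2 fold-changes 0.65 ± 0.19, 0.87 ± 0.23 and 0.54 ± 0.18). Those of lowest P-value that were lower were Recql4 and Gins3 against Sets 2 and 3, and Rpa1, Rfc5 and Pola2 against Set 4.

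The E2F and Rb family did not move as a group, with 2, 1 and 4 of 12 higher and 0, 1 and 2 lower in Set 1, where 7.06, 4.3 and 12.4% of all genes tested were higher. E2f2 was higher in all 3 comparisons (log2 fold-changes 1.65 ± 0.24, 1.67 ± 0.30 and 1.36 ± 0.22). E2f1 was lower against Sets 3 and 4 (-1.30 ± 0.32 and -1.21 ± 0.27). Rb1 was higher against Sets 2 and 4 (0.80 ± 0.26 and 1.18 ± 0.25), and against Set 4 Rbl2 (1.05 ± 0.30) and E2f5 (0.64 ± 0.22) were higher too. Among the cell type lists, some hepatocyte markers were higher in Set 1, whereas the ductal list went both ways. Of 8 tested hepatocyte markers 3, 2 and 4 were higher in Set 1 than in Sets 2, 3 and 4 and 0 were lower, among them Apob each time (log2 fold-changes 3.32 ± 0.34, 1.83 ± 0.38 and 3.69 ± 0.32). Their summed level was 585.7 to 2466 CPM in Set 1 and 572.9 to 1554, 480.1 to 716.6 and 521.6 to 2677 CPM in Sets 2, 3 and 4, so it overlapped with each, and 4 of the 16 were at 0 throughout. Of 3 tested macrophage markers 1, 1 and 0 were lower and 0 were higher. Of 12 cholangiocyte and ductal markers 3, 1 and 0 were higher and 2, 4 and 1 were lower. The part of these in the result was not tested. Mki67 did not pass in any comparison of sets, with log2 fold-changes of -0.25 ± 0.25, -0.13 ± 0.30 and -0.00 ± 0.24 for Set 1.

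By the labels, bulk cultures at passage 11 were on the higher side, whereas single organoids of Set 1, at passage 11 by the study's account, were on the lower. Of the 42 members, 6 were both higher at passage 11 in bulk and lower in Set 1 against each other set, where 0.225% of the genes tested in both had this combination. The bulk contrast compares passages within the same mice, whereas the single organoid contrast compares mice. Across members the sizes of the changes had a Pearson's r of -0.214 (Spearman's rho -0.137), as a description over 42 genes.

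Organoids of a set differed in the members about as much as in other genes. The SD of log2 CPM within sets had a median of 0.44 over the members (0.25 to 0.75), and of 0.48 over all genes tested. The biological coefficient of variation was 0.276 for the median member and 0.277 for the median gene. Among the 9265 genes at or above the lowest average level of a member these medians were 0.41 and 0.258, slightly below those of the members. Over the 35 organoids, after the mean of each set was removed, 83.9% of the 861 pairs of members had a positive Pearson's r, with a median of 0.416. Over all genes 50.6% of pairs were positive, with a median of 0.005. The highest pairs were Clspn with Hells (r = 0.92) and Pola1 with Usp1 (r = 0.913), and the lowest was Pold1 with Slbp (r = -0.576). The points of such a correlation are 35 organoids from 4 mice that share a library preparation and differ in depth, so it is given without a P-value. By role, the median r among members of a group ran from 0.239 for the primase and polymerase genes to 0.586 for the fork protection genes. The median r was 0.554 in Set 1, 0.198 in Set 2 and 0.451 in Set 4, over 8, 10 and 12 organoids.

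The members fell along a line from those that followed Mki67 to those that did not. The r with Mki67 was positive for 27 members and negative for 15, with a median of 0.43, against 0.039 over all genes. Atad2 (0.79), the repair helicase gene Brip1 (0.78), Nasp (0.75), Clspn (0.74), Blm (0.72) and Pola1 (0.71) were at the upper end. Pcna (-0.39), Pold1 (-0.37), Mcm2 (-0.36), Rfc2 (-0.36), the single-strand binding gene Rpa2 (-0.35), Chaf1b (-0.31), Mcm6 (-0.30) and Mcm5 (-0.23) were at the lower end. As an example, Atad2 had 13.6 CPM in organoid 1 and 47 CPM in organoid 2 of Set 1, where Mki67 had 121 and 505 CPM. In the same organoids Mcm2 had 7.21 and 8.5 CPM.

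This order was similar in Sets 1, 2 and 4. Across the 42 members, the r with Mki67 in Set 1 and in Set 2 correlated at 0.83, in Sets 1 and 4 at 0.765, and in Sets 2 and 4 at 0.904. These are correlations across genes that are not independent, and within a set all members share the same Mki67 values. In Set 1 alone 38 members had a positive r with Mki67, in Set 2 26 and in Set 4 28. Organoid 1 of Set 1 and organoid 15 of Set 4 had the lowest Mki67 of their sets, at 121 and 140 CPM. They also held the lowest value of the set for 34 and 29 of 42 members. The r within these sets was not computed without them, so it may rest in part on these organoids. The 16 members with an r of 0.5 or more correlated with each other at a median of 0.65. The 15 members with an r below 0 did so at a median of 0.633. Between the 2 ends the median was -0.019. Both ends were cut from these same organoids, so the medians describe them and test nothing.

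**Figure D5:**
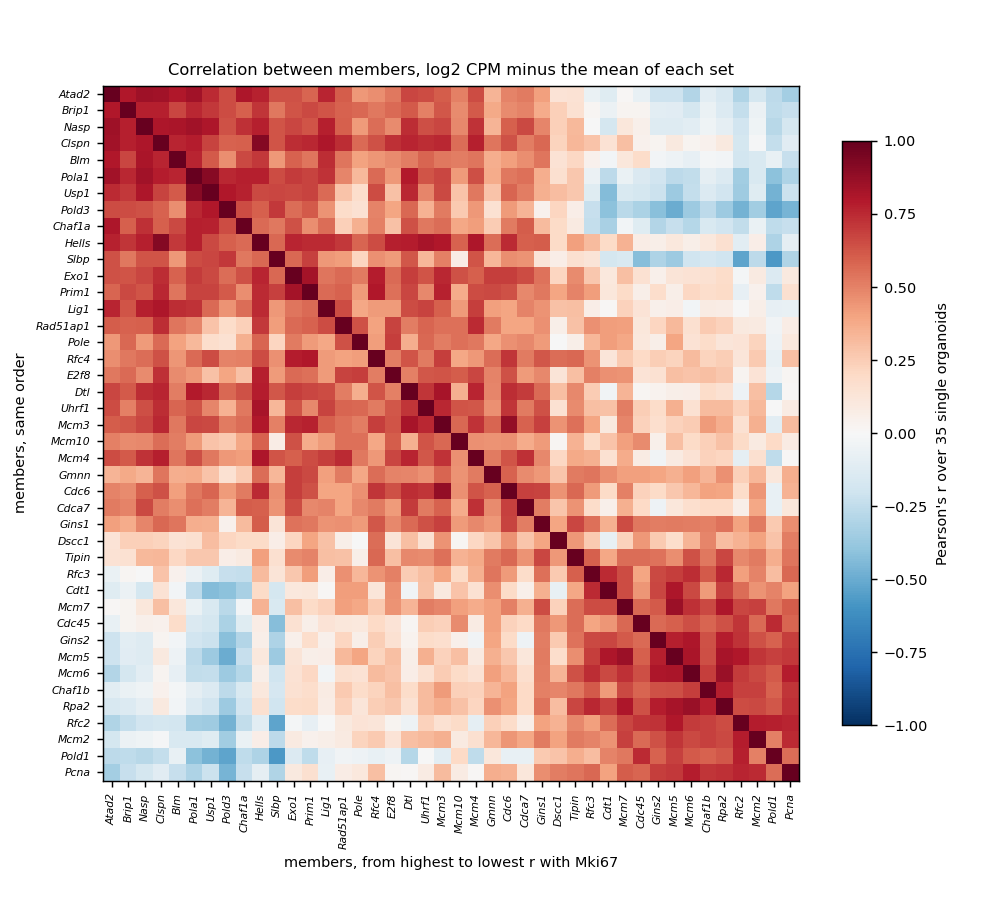
Pearson's r between each pair of the 42 members over 35 single organoids, from log2 CPM with the mean of each set removed (blue -1 to red 1); rows and columns run from the highest to the lowest r with Mki67. A block at the upper left (Atad2 to Pole) and a block at the lower right (Dscc1 to Pcna) are 100 and 99% positive, and r between them scatters around 0 with a median of -0.019.

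Depth moved with the same order. The r of a member with the log2 total counts of the organoid had a median of -0.35, against 0.036 over all genes. Across members this r with depth ran against the r with Mki67 (Pearson's r = -0.735). Without the 5 organoids of over 5000000 counts the median r with Mki67 was 0.1, with 25 members positive and 17 negative. The order of the members correlated at 0.971 with that over all 35. The part of depth in the level of these correlations was not tested.

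The dome and passage comparisons used other libraries than this order, whereas the Set 1 comparisons used the same 35 organoids and are not independent of it. For members at either end they gave the following. Of the 16 members with an r of 0.5 or more, 8 rose at bulk passage 11, 16 were lower in domes and 6 were lower in Set 1 in at least 1 comparison. Of all genes tested, 10.1, 14.7 and 13.6% did so. Of the 15 with an r below 0, these counts were 14, 13 and 15. The median log2 fold-change at passage 11 was 0.91 for the first and 1.30 for the second group, and in domes it was -1.88 and -1.25. Across all 42 members the r with Mki67 correlated with the dome change at -0.527, with the passage change at -0.281 and with the Set 1 change at 0.398. The longest annotated transcripts had medians of 4898 and 2189 bases in the 2 groups. Across members transcript length correlated with the dome change at -0.477 and with the passage change at -0.133. These are descriptions over 42 genes, and the part of transcript length was not tested.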

How the data were processed

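Gene counts of 6 dome and suspension cultures, 12 bulk passage libraries and 42 single organoids were used as deposited by the authors. Per the study's methods they came from 3′-end libraries with unique molecular identifiers, processed with zUMIs, STAR, SAMtools and featureCounts on mm10/GRCm38 with down-sampling. The submitters' processing notes name SAMtools 1.9, edgeR 3.28.1 and limma 3.42.2 under R 3.6.3. Nothing in the sources used here says whether the counts are molecules or reads. The organoids kept and their passages follow the paper. After technical replicates were summed, 1059002 to 14761853 counts per library set the precision, and genes near 1 CPM carry mostly sampling noise.

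Groups came from the sample labels. In R 4.3.3, genes were kept with filterByExpr (minimum count 3) and normalised by TMM, and edgeR 4.0.16 quasi-likelihood F-tests were fitted to all genes, with a threshold of 0.05 on P-values adjusted by Benjamini-Hochberg, over all 6 comparisons together for the 4 sets. The authors used limma-voom, run here as an alternative (limma 3.58.1), as was DESeq2 1.42.0. Log2 CPM used a prior count of 2. The 2 technical replicates per bulk culture were summed and counted as 1. The fits were tested on simulated data. Where nothing names separate cultures, P-values measure the spread between samples.

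Set numbers pair passages by mouse. Dome and suspension cultures of the same number were taken as pairs only in the replicate block, an alternative setting. The main tests held no term for pairs, of cultures or of sets. Deviations of same-numbered cultures from their group means correlated at r = 0.153 to 0.191, and those of the same set between passages at 0.028 to 0.11. Such a correlation alone does not establish pairs, and the labels do not say which dome and suspension cultures share a pool. Single organoid numbers pair nothing.

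Members and lists were chosen with earlier results of these data known. Named in each comparison were the 6 members of lowest P-value, the 3 of smallest change, any against the majority and the leader of each role, and of the other lists the 3 of lowest P-value and any against the majority. Other members were named after their values were seen. Lists of other replication genes, E2F and Rb family, cholangiocyte, hepatocyte, macrophage, endothelial and mesenchymal markers were counted. Alternatives were other size factors, filters, tools, thinning, a replicate block, left-out replicates and all 42 organoids.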

Additional observations from a re-analysis of the deposited data

Results flagged for a closer look

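Pold3 stood apart in organoid 6 of Set 1, at 32.9 CPM, where the next lowest of the 8 organoids had 51.5 CPM. Rad51ap1 stood apart in organoid 1 of Set 1, at 5.6 CPM with the next lowest at 14.7 CPM. Mcm6 stood apart in organoid 1 of Set 3, at 85.5 CPM with the next highest of 5 organoids at 60.5 CPM. These were 3 of 126 groups tested for an outlying sample, and chance gives about 1 in 20.

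Atad2 changed in opposite directions between sets in bulk culture. Its log2 ratio of passage 11 to passage 4 was -1.198 in Set 1, 0.439 in Set 3 and 0.817 in Set 4, and in each set both technical replicates of one passage lay outside those of the other. The difference between sets was not tested.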

How the results depend on the processing

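For domes the count of 40 members lay between 28 and 41 when a culture was left out and was 40 with a replicate block; at passage 11 the count of 31 lay between 26 and 32 and was 32 with a replicate block. Other size factors, filters, limma-voom, DESeq2 and thinning to the smallest total kept both counts within 1.5 times. No member that passed in the main fit or in an alternative changed sign between them. At passage 11 there were 7 changes of sign over the settings, all where the member passed in neither. For Set 1 against Sets 2, 3 and 4 there were 9, 4 and 7, again all where the member passed in neither. For domes there were 0. Against Set 2 the 18 members lower in Set 1 became 7 with all 42 organoids, 11 without organoids 1 and 6 of Set 1, and 9 to 19 when a Set 1 organoid was left out, 9 without organoid 1 and 11 without organoid 3. Against Set 3 the 19 became 10 with all 42 organoids and 13 to 24 with an organoid left out, and against Set 4 the 23 became 18 to 25. After thinning to the smallest total, the counts against Sets 2, 3 and 4 were 12, 13 and 17. With no low-count filter they were 12, 19 and 20. Without organoids 1 and 6 of Set 1 the count against Set 4 was 17, of which 1 was higher. Leaving out Set 1 organoids was chosen after seeing the data. Between Sets 2 and 4 the count of 0 was 1 with no low-count filter, with a replicate block and with all 42 organoids. Between Sets 3 and 4 the count of 1 was 3 with DESeq2, of which 1 was lower in Set 3, 0 with the replicate block and 0 to 1 with a Set 3 organoid left out. Without organoid 6 it was 0, and without organoid 1 the 1 member was lower in Set 3, so the call of Rfc4 was lost in both. The cause of these shifts was not tested. The replicate block moved no other count by more than 1.5 times. For the sets it rested on organoid numbers, which pair nothing. With 1 mouse per set and 3 cultures per bulk group, members of few counts, such as Blm and Chaf1a, were measured least precisely.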
